A study of Mus musculus with 40 samples.

Results

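The genes examined were 7 collagen chains (Col11a1, Col1a1, Col1a2, Col3a1, Col4a1, Col4a2 and Col6a1), the small leucine-rich proteoglycans decorin (Dcn) and lumican (Lum), and the growth factor Igf2, which are 10 of the 47643 genes counted in the brains of mice colonized with human gut microbes. They were picked by name around a lower level of Col11a1 in the frontal cortex of mice given post-KD microbes, so that result chose the genes and is described here with no test. Earlier results of these data were known when they were picked. Recipients were outbred Swiss Webster mice, wild-type and germ-free until gavage, which the methods give as female, 6 to 8 weeks old and fed a control diet. Each of 20 cohorts received by gavage the stool microbiota that 1 of 10 donors, children with refractory epilepsy, gave before (pre-KD) or during (post-KD) a clinical ketogenic diet. Hippocampus and frontal cortex were taken on day 4 after colonization, and each library pooled the RNA of 6 mice, which gives 10 pre-KD and 10 post-KD libraries per region. The replicate is therefore the cohort, mouse-to-mouse variation is hidden inside the pools, and libraries from mice left germ-free were not analysed here.

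Collagens are triple-helical proteins of the extracellular matrix. Types I and III form the thick fibrils of connective tissue, and type XI, to which Col11a1 contributes a chain, is a minor fibrillar type that takes part in starting fibrils and setting their width. Type IV builds the sheet of basement membranes, including the one around brain vessels, and type VI forms beaded microfibrils next to cells. Decorin and lumican bind collagen fibrils and limit their thickness. In the brain types I and III and decorin are known mainly from fibroblasts of the meninges and of larger vessels, type IV from endothelial and mural cells, and Igf2 from the meninges, the choroid plexus and vessels.

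Between 1140756 and 2095352 reads per library were counted on genes. The regions separated by their neuron markers, with 8 of 8 hippocampal marker genes lower in the frontal cortex (5 past the adjusted threshold) and 7 of 8 cortical marker genes higher (4 past it, with 1 gene past it in the other direction). Over all 19422 genes tested, 37.3% were lower in the frontal cortex, 2.85% passed the adjusted threshold and 0.87% passed as lower. The methods give female recipients, yet 9 of the 40 libraries held at least 10 counts summed over 4 Y-linked genes, up to 276. These were 5 hippocampal libraries (3 pre-KD and 2 post-KD) and 4 frontal cortical ones (2 and 2), and values that move by over 1.5 times or change sign without them are also given without them. None of the 4 Y-linked genes had an adjusted p under 0.05 or an unadjusted p under 0.05 in edgeR in any of the 3 comparisons made here. The tissue is bulk, so fewer cells of a type and less RNA per cell cannot be told apart.

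The stretches of DNA just before the start sites of Col11a1 and of 2 fibrillar collagen genes of the fibroblast set are shown because the question is whether Col11a1 moved with those genes. A RefSeq table (GRCm38.p6) held an entry for 7 of the 10 genes. The 250 bases before the start are printed 5′ to 3′ on the gene's strand, with capitals on matches to any of 3 short promoter motifs, searched on both strands. The first is the CCAAT box, which a common family of transcription factors binds. The second is the GC box, spelled GGGCGG, known as a binding sequence of Sp proteins. The last is the TATA element near many start sites, spelled TATAAA.
Col11a1, chr3:114030290-114030539, plus strand: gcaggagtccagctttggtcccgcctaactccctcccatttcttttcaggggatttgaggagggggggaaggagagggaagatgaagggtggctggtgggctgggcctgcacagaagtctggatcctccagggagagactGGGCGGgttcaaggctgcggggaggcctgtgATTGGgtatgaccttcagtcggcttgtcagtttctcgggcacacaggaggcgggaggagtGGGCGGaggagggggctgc
Col1a2, chr6:4505368-4505617, plus strand: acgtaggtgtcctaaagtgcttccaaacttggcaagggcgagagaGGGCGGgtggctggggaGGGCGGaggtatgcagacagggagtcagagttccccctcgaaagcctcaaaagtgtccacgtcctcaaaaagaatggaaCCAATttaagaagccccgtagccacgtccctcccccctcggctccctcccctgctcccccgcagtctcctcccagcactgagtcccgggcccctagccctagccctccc
Col3a1, chr1:45311288-45311537, plus strand: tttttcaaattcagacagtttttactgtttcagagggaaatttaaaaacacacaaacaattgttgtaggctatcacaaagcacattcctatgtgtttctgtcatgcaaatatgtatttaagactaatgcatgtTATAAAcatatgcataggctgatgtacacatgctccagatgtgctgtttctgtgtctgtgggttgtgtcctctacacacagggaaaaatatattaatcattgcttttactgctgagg
Counted from the start site, the Col11a1 stretch held a CCAAT match at -79 and GC box matches at -110 and -19. The Col1a2 stretch also held 1 CCAAT and 2 GC box matches, and its RefSeq start lies inside the gene span of the annotation used for the other coordinates. Col3a1 held neither, and a TATA element at -117. Their G and C content was 62.4%, 62.0% and 35.2%. Of 32851 promoters in the table, taken over the same length, 33.8% held CCAAT, 32.7% the GC box and 12.4% the TATA element. A match describes letters only.

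Col11a1 (ENSMUSG00000027966) lies on the plus strand of chr3:114030540-114220718 (GRCm38). Its frontal cortical level ran, with pre-KD microbes, from 16.99 over a median of 31.7 to 76.5 CPM (counts per 1000000, with TMM scaling over the 40 libraries), and with post-KD microbes from 1.74 over 8.67 to 33.4 CPM. The means were 37.1 ± 17.8 and 12.03 ± 10.3 CPM (SD, n = 10 each). The post-KD library lay below the pre-KD library of the same donor in 9 of 10 donors, and 8 of the 10 post-KD libraries lay below every pre-KD library. Donor 10 was the exception, at 20.5 CPM in its pre-KD library against 33.4 CPM in its post-KD library, and the groups overlap through donors 2 and 10. The fitted log2 fold change was -1.61 ± 0.39 (SE), a pre-KD level 3.06 times the post-KD one, and 5.84% of the 17873 genes fitted had a lower value. With each donor left out in turn it lay between -1.996 (without donor 10) and -1.42 (without donor 1). Without the 4 frontal cortical libraries with Y-linked counts it was -1.99 ± 0.43, and with the donor as a block -1.95 ± 0.43.

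The same cohorts gave another picture in the hippocampus, which was not used to choose the genes. Col11a1 ran from 0 over 24.8 to 65.4 CPM with pre-KD microbes and from 0.656 over 25.0 to 48.0 CPM post-KD, with means of 27.8 ± 18.4 and 25.6 ± 14.2 CPM (SD, n = 10 each). The groups overlapped over nearly their whole range, and the post-KD library was the lower one in 6 of 10 donors. The log2 fold change was -0.13 ± 0.50 (SE, edgeR quasi-likelihood test, adjusted p = 0.9998), with an approximate 95% interval of -1.10 to 0.85, and it was 0.02 ± 0.61 without the libraries with Y-linked counts. The difference between the regional changes, frontal cortex minus hippocampus, was -1.80 ± 0.72 on the log2 scale and is a description, since it contains the frontal cortical contrast.

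**Figure D1:**
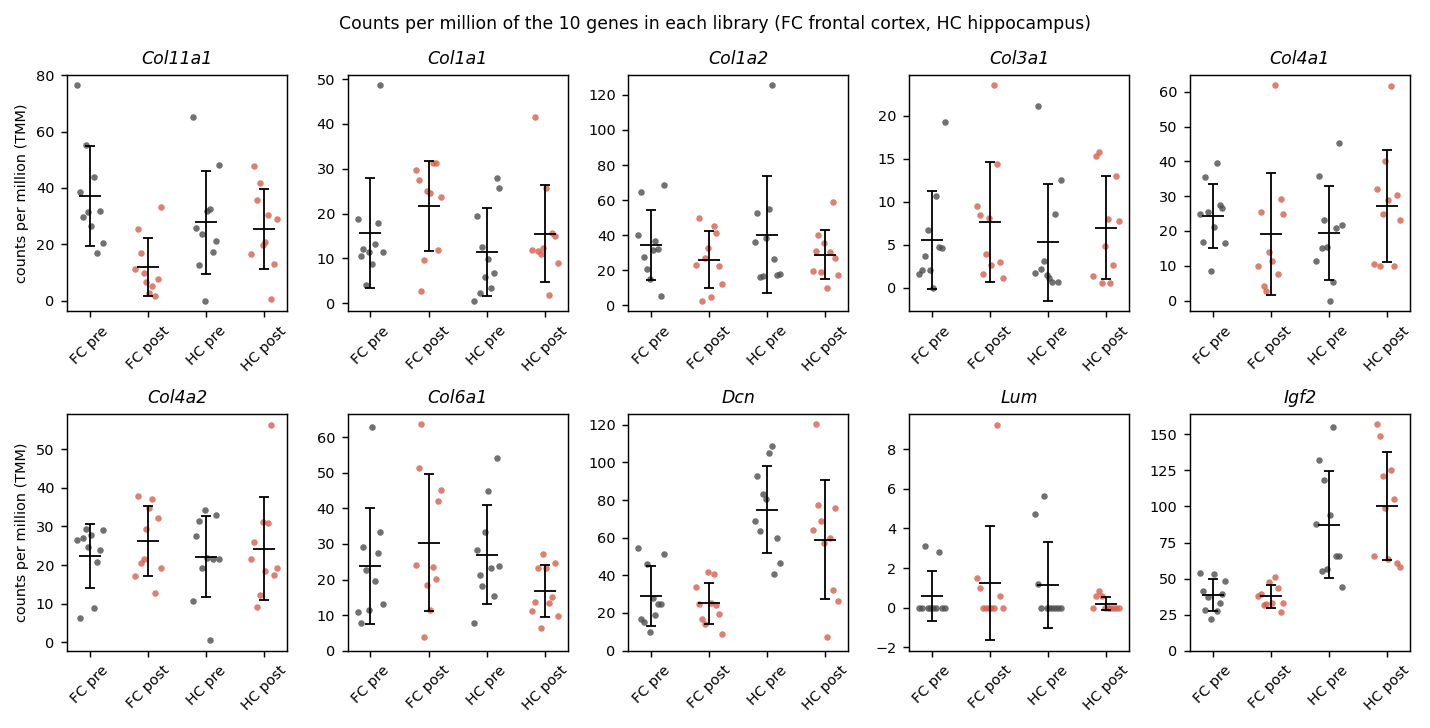
CPM of each gene (y axis, own scale per gene) in each library (points), by region and colonization, with mean and SD (bars). Frontal cortical Col11a1 has 8 of 10 post-KD points below all pre-KD points, Dcn and Igf2 stand higher in the hippocampus, and the other genes overlap between groups.

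The 5 fibroblast genes of the set had fitted changes on both sides of 0 in the frontal cortex, so their sum can hide changes of single genes. Summed over Col1a1, Col1a2, Col3a1, Dcn and Lum, the frontal cortical level was 85.0 ± 30.4 CPM with pre-KD microbes (38.7 to 151) and 81.7 ± 38.5 CPM with post-KD microbes (23.7 to 141, SD, n = 10 each). Col1a1, Col3a1 and Lum had fitted values above 0 and Col1a2 and Dcn below 0. These are descriptions as well, because they come from the contrast that chose the genes.

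Col1a1 and Col1a2 encode the chains that assemble into type I collagen, and their values lay on opposite sides of 0. Col1a1 (chr11:94936224-94953042, plus strand) ran from 3.96 over 11.8 to 48.6 CPM with pre-KD microbes and from 2.70 over 24.9 to 31.2 CPM with post-KD microbes in the frontal cortex. The post-KD library was higher in 8 of 10 donors, and the log2 fold change was 0.48 ± 0.43 (SE). It was 0.93 ± 0.45 without donor 9 and 0.91 ± 0.49 without the libraries with Y-linked counts. Col1a2 (chr6:4504814-4541544, plus strand) ran from 5.33 over 31.8 to 68.7 CPM with pre-KD microbes and from 2.70 over 25.1 to 49.9 CPM post-KD. It was higher in 5 donors and lower in 5, with a log2 fold change of -0.39 ± 0.37, -0.24 ± 0.38 without the libraries with Y-linked counts and -0.14 without donor 10. In the hippocampus the corresponding values were 0.44 ± 0.72 for Col1a1 and -0.50 ± 0.41 for Col1a2, with adjusted p = 0.9998 and 0.959 in edgeR. Without the 5 hippocampal libraries with Y-linked counts Col1a1 was 1.47 ± 0.99 (adjusted p = 0.839). With each donor left out it lay between 0.27 (without donor 2) and 0.72 (without donor 10), and hippocampal Col1a2 between -0.71 and -0.10 (without donor 7).

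Col3a1 (chr1:45311538-45349706, plus strand), the single chain of type III collagen, was counted 91 times in the 10 pre-KD and 133 times in the 10 post-KD frontal cortical libraries. Its levels ran from 0 over 4.16 to 19.3 CPM and from 1.13 over 6.03 to 23.6 CPM, overlapping throughout, with a log2 fold change of 0.46 ± 0.76 (SE). Dcn (chr10:97479609-97518143, plus strand) ran from 9.94 over 24.6 to 54.7 CPM with pre-KD microbes and from 9.06 over 24.6 to 42.0 CPM post-KD, and its change was -0.21 ± 0.34. The medians of Dcn were nearly equal. Without the libraries with Y-linked counts the frontal cortical value was 1.18 ± 0.85 for Col3a1 and 0.05 ± 0.37 for Dcn. In the hippocampus Col3a1 gave 0.38 ± 1.04 and Dcn -0.35 ± 0.29 on the log2 scale, with adjusted p = 0.9998 and 0.959 in edgeR. Without those libraries hippocampal Col3a1 was 1.15 ± 1.44 (adjusted p = 0.9998). With each donor left out it ran from 0.08 (without donor 3) to 0.75 (without donor 2) and Dcn from -0.48 to -0.15 (without donor 6), while the frontal cortical values ran from 0.23 (without donor 7) to 1.04 (without donor 10) for Col3a1 and from -0.42 (without donor 5) to 0.02 (without donor 10) for Dcn.

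Lum (chr10:97565128-97572703, plus strand) was close to the limit of detection. It had 9 counts over pre-KD and 22 over post-KD frontal cortex and was at 0 in 8 and 6 of the 10 libraries, with 16 of the 22 counts in the post-KD library of donor 8. The ratio of the pooled counts, post-KD over pre-KD, was 2.26 with an exact 95% interval of 1.002 to 5.59, which covers counting error only. The fitted log2 fold change was 0.98 ± 1.41 (SE), and -0.04 without donor 8. In the hippocampus 19 and 3 counts were found, most of them in the pre-KD libraries of donors 1 (8 counts) and 4 (9 counts), and the log2 fold change of -2.14 ± 1.43 (SE) had adjusted p = 0.826 in edgeR and was -0.91 with the donor as a block. A library at 0 allows up to 3 counts.

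**Figure D2:**
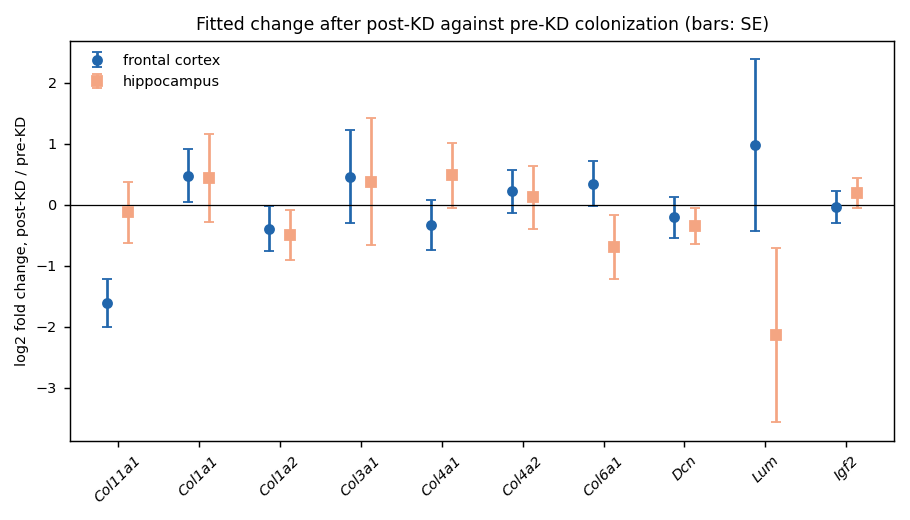
Fitted log2 fold change of each gene, post-KD over pre-KD (y axis), with its SE (bars), in the frontal cortex (circles) and the hippocampus (squares). Col11a1 in the frontal cortex, the value that chose the genes, is at -1.61, and the Lum values have the widest bars.

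The type IV collagen genes Col4a1 (chr8:11198423-11312826, minus strand) and Col4a2 (chr8:11312805-11449287, plus strand) are transcribed away from each other from a shared start region, and their exons overlap by 22 bases on opposite strands. The strand setting of the counting was not given in the sources used here, so how reads from that overlap were counted is not known. Col4a1 ran from 8.37 over 25.2 to 39.6 CPM with pre-KD microbes and from 2.83 over 12.7 to 61.9 CPM with post-KD microbes in the frontal cortex. Col4a2 ran from 6.32 over 25.6 to 29.4 CPM and from 12.7 over 25.5 to 37.9 CPM. The log2 fold changes were -0.34 ± 0.41 and 0.22 ± 0.35 (SE), and each gene was lower post-KD in 5 of 10 donors. In the hippocampus they were 0.48 ± 0.53 and 0.12 ± 0.51, with adjusted p = 0.9998 for both in edgeR, and 1 pre-KD library (donor 6) had 0 counts of Col4a1 although the other 9 had up to 71. Without the libraries with Y-linked counts Col4a1 was 1.06 ± 0.71 (adjusted p = 0.835) and Col4a2 0.36 ± 0.64 (adjusted p = 0.9998) in the hippocampus, and Col4a1 was -0.54 ± 0.47 in the frontal cortex. With each donor left out Col4a1 ran from 0.16 (without donor 7) to 0.69 in the hippocampus and from -0.65 (without donor 7) to -0.14 (without donor 3) in the frontal cortex, where Col4a2 ran from 0.03 (without donor 2) to 0.31.

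Col6a1 (chr10:76708792-76726168, minus strand), a chain of type VI collagen, had values of opposite sign in the 2 regions. In the frontal cortex it ran from 7.73 over 21.04 to 63.05 CPM with pre-KD microbes and from 3.96 over 23.8 to 63.7 CPM post-KD, with a log2 fold change of 0.35 ± 0.37 (SE), 0.16 ± 0.42 without the libraries with Y-linked counts, and between 0.12 (without donor 2) and 0.74 (without donor 6) with 1 donor left out. In the hippocampus it ran from 7.72 over 23.5 to 54.1 CPM and from 6.38 over 14.3 to 27.1 CPM, and the post-KD library was lower in 8 of 10 donors. The hippocampal log2 fold change of -0.70 ± 0.53 did not pass (edgeR, adjusted p = 0.913).

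Igf2 (chr7:142650766-142666816, minus strand), a fetal growth factor that stays active in the coverings of the adult brain, had the smallest error of the 10 genes in both regions. Frontal cortical levels ran from 21.97 over 38.3 to 53.9 CPM with pre-KD microbes and from 26.7 over 35.3 to 51.3 CPM post-KD, with a log2 fold change of -0.03 ± 0.26 (SE), 0.09 ± 0.29 without the libraries with Y-linked counts, and between -0.14 (without donor 5) and 0.05 (without donor 6) with 1 donor left out. Hippocampal levels ran from 43.9 over 76.8 to 155 CPM and from 58.0 over 102 to 158 CPM, with a log2 fold change of 0.19 ± 0.24 (edgeR, adjusted p = 0.9998). It was 0.44 with the summed fibroblast level as a covariate, and between 0.05 (without donor 3) and 0.29 (without donor 7) with 1 donor left out. Of its 5723 exonic bases Igf2 shares 3596 with Gm49394, a protein-coding gene on the same strand in the annotation used for coordinates, for which no counts were analysed here, so reads of the shared bases cannot be told apart. It also shares 98 with the antisense gene Igf2os, which had 17 counts over all 40 libraries.

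In the hippocampus, the region not used to choose the genes, 0 of the 10 had an adjusted p under 0.05 in edgeR and 0 had an unadjusted p under 0.05, where 0.0057% and 10.1% of the 17529 genes tested did. DESeq2 also gave 0 by either threshold. The share over all genes depends on the filter. A stricter one kept 9509 genes, of which 221 had an unadjusted p under 0.05 in edgeR, and it kept 8 of these 10 genes, with 0 called. Of the 10 hippocampal log2 fold changes 5 were below 0, against 50.7% of all genes, and in the frontal cortex 5 were below 0, against 49.2% of all genes. In the frontal cortex 9.68% of all genes had an unadjusted p under 0.05 and 0.0056% an adjusted one, and nothing is read from these shares, since the genes were chosen on that contrast. A p that misses the threshold does not show that levels were equal: the approximate 95% intervals in the hippocampus were as narrow as -0.28 to 0.66 for Igf2 and as wide as -4.94 to 0.66 for Lum.

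Counting noise was the smaller part of the spread. Leaving out Lum, the coefficient of variation among the 10 libraries of a group was 1.68 to 6.62 times the value that Poisson counting alone would give at the same mean count. For Col11a1 it was 47.9% in pre-KD and 85.5% in post-KD frontal cortex, against Poisson values of 13.01% and 21.4%.

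Per kilobase of exon, Igf2 had the highest and Col3a1 and Lum the lowest mean levels over the 20 libraries of each region. This scale holds only for a kit that covers the whole transcript, as the labels name (TruSeq). In the hippocampus Igf2 stood at 16.4 ± 6.45, Dcn at 11.5 ± 4.83 and Col6a1 at 4.997 ± 2.74 CPM per kilobase (SD, n = 20), and Dcn to Col6a1 was the single step between neighbours larger than the larger SD of the pair. The next were Col4a2 (3.51), Col4a1 (3.12), Col1a2 (2.78), Col11a1 (2.09), Col1a1 (2.05), Col3a1 (0.628) and Lum (0.277), whose neighbours were all within 1 SD. In the frontal cortex Igf2 stood at 6.64 ± 1.63, Col6a1 at 6.19 ± 4.02, Dcn at 4.62 ± 2.30 and Col11a1 at 1.93 ± 1.501, and no 2 neighbours in the order differed by more than the larger SD. These levels pool both colonizations. Frontal cortical Col11a1 stood at 2.91 ± 1.40 CPM per kilobase (rank 6) among pre-KD and at 0.944 ± 0.807 (rank 8) among post-KD libraries (SD, n = 10 each), and among the latter Col6a1 (6.94) ranked before Igf2 (6.57).

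Whether Col11a1 followed the fibroblast genes from cohort to cohort was looked at within the colonization groups, after removing the mean of each, so that the difference between pre-KD and post-KD plays no part. Against the log2 of the summed CPM of the 5 fibroblast genes, Col11a1 gave Pearson's r = -0.27 and Spearman's rho = -0.28 over the 20 frontal cortical libraries, and r = -0.21 without the 2 libraries farthest from the median. In the hippocampus r was 0.10 and rho 0.19. Within frontal cortex r was 0.06 among pre-KD and -0.39 among post-KD libraries. The 5 genes share each library with Col11a1, and these values are a description with no p. Pairs among Col1a1, Col1a2, Col3a1 and Dcn gave r from 0.18 to 0.49 in the frontal cortex and from -0.23 to 0.52 in the hippocampus. The sum is therefore an uneven measure of fibroblast content. Neither a weak r with it nor its use as a covariate shows whether Col11a1 follows that content. The fitted frontal cortical change of Col11a1 was -1.71 ± 0.41 with this summed level as a covariate, against -1.61 ± 0.39 without it.

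**Figure D3:**
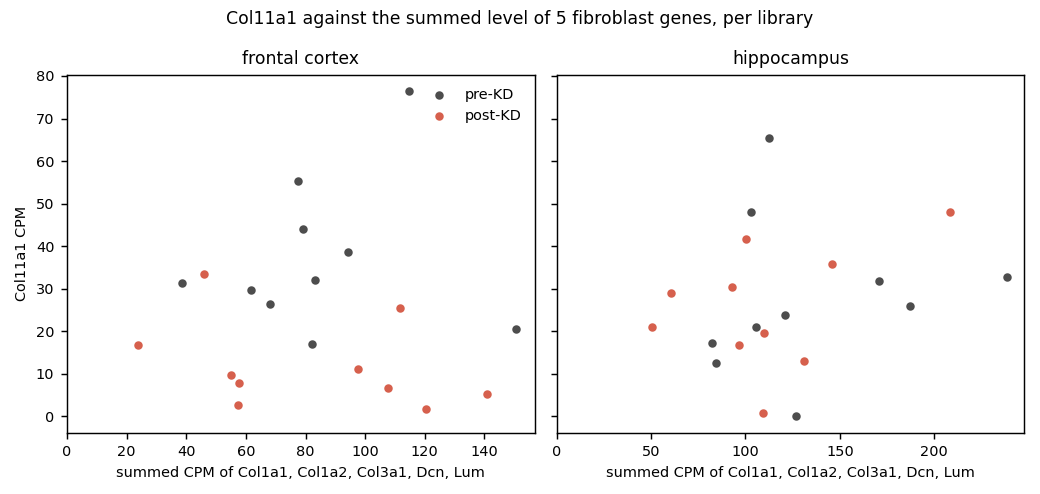
Col11a1 CPM (y axis) against the summed CPM of Col1a1, Col1a2, Col3a1, Dcn and Lum (x axis), 1 point per library, in the frontal cortex (left) and the hippocampus (right). In the frontal cortex the post-KD points lie low on the y axis while both groups cover much of the same range on the x axis (38.7 to 151 CPM pre-KD, 23.7 to 141 CPM post-KD).

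A list of 28 other fibroblast and meningeal genes, of which 27 were found, was examined beside them. Their summed level was 189 ± 27.9 CPM with pre-KD and 202 ± 26.6 CPM with post-KD microbes in the frontal cortex, and 191 ± 52.8 and 206 ± 59.0 CPM in the hippocampus (SD, n = 10 each). In the hippocampus 2 of the 27 tested, Mfap4 and Pi16, had an unadjusted p under 0.05, where 10.1% of all genes did, and 0 an adjusted p under 0.05, and the median log2 fold change was 0.24, against -0.01 over all genes. Mfap4 and Pi16 were at 0 in all post-KD hippocampal libraries and averaged 0.894 and 0.742 CPM pre-KD. Frontal cortex allowed a test of 24, 13 higher and 11 lower, with a median of 0.13 against 0.01, 1 at an unadjusted p under 0.05, where 9.68% of all genes were, and 0 at an adjusted one. In pre-KD frontal cortex 2 of the 27 were at 0 in every library, and in post-KD frontal cortex 0 were. Part of the list is also made by brain cells: Cdh11, a cadherin and the most abundant of the 27, stood at 35.1 ± 23.9 CPM with pre-KD and 43.8 ± 18.7 CPM with post-KD microbes in the hippocampus.

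Col11a1 gave r = -0.12 (rho = -0.20, permutation p = 0.605 and 0.418) with the summed level of that list in the frontal cortex, within colonization groups over 20 libraries. In the hippocampus r was 0.15 (rho = 0.48, permutation p = 0.522 and 0.0407). Of the 36 relations between 9 genes (without Lum, for its low counts), 2 list levels and 2 regions, 0 passed after Benjamini-Hochberg adjustment, and adjusted p for these were 0.935 and 0.890 in the frontal cortex and 0.892 and 0.618 in the hippocampus. Without the 2 libraries with the most extreme list levels r was -0.51 in the frontal cortex and 0.14 in the hippocampus.

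Other levels were set beside the Col11a1 change in the same way. With the summed level of 14 endothelial and 13 mural genes as a covariate the frontal cortical log2 fold change was -1.57 ± 0.40, with that of 12 choroid plexus genes -1.57 ± 0.40, and with the mean level of the Y-linked genes -1.71 ± 0.41 (SE). The summed endothelial level was 308 ± 53.4 CPM with pre-KD against 311 ± 69.6 CPM with post-KD microbes, and the mural level 215 ± 37.0 and 200 ± 45.5 CPM. The choroid plexus level ran from 7.85 to 629 CPM with pre-KD microbes and from 16.96 to 450 CPM with post-KD microbes in the frontal cortex. The blood level was 738 ± 246 and 976 ± 257 CPM, with 2 of 4 genes tested at an unadjusted p under 0.05, where 9.68% of all genes were, and 0 at an adjusted one. Its part in the Col11a1 value was not tested.

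Pairs of the genes were then compared from cohort to cohort in the same way, and 1 of 81 relations passed. Of 36 pairs among 9 genes in the hippocampus 17 had a positive and 19 a negative r, with a median of -0.01, and in the frontal cortex 24 were positive and 12 negative, with a median of 0.18. With 9 more relations between the regions of a cohort the family held 81, of which 9 had a permutation p under 0.05 for r, and 1 passed after adjustment by r and 0 by rho. That pair was Dcn with Igf2 in the frontal cortex, with r = 0.75 and rho = 0.73 (permutation p = 0.0003 and 0.0007, adjusted p = 0.0243 and 0.0567, n = 20). It was 0.78 among pre-KD and 0.71 among post-KD libraries, 0.71 without the 2 libraries farthest from the median, and 0.75 with the choroid plexus level removed from both. In the hippocampus the same pair gave r = 0.57 and rho = 0.62 (permutation p = 0.00377 and 0.00451, adjusted p = 0.112 and 0.182), and 0.38 with the choroid plexus level removed.

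**Figure D4:**
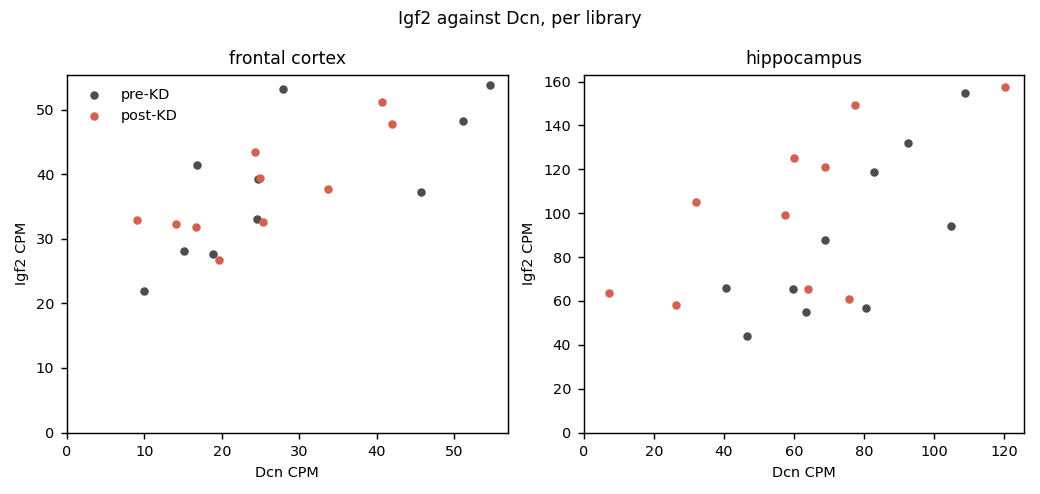
Igf2 CPM (y axis) against Dcn CPM (x axis), 1 point per library, pre-KD and post-KD in both regions. Libraries with more Dcn have more Igf2 within both colonization groups of the frontal cortex (r = 0.75 after removing group means).

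By Pearson's r, none of the 8 Col11a1 pairs in either region had a permutation p under 0.05. By rank, Col11a1 with Col4a2 in the hippocampus gave rho = -0.53 (permutation p = 0.0157, adjusted p = 0.182, n = 20). Their r ran from -0.33 (Col3a1) to 0.25 (Col6a1) in the frontal cortex and from -0.47 (Col4a2) to 0.28 (Igf2) in the hippocampus. Col11a1 in the hippocampus against Col11a1 in the frontal cortex of the same cohort gave r = 0.46 and rho = 0.45 (permutation p = 0.0329 and 0.049, adjusted p = 0.335 and 0.397, n = 20), and 0.42 without the 2 farthest libraries.

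The genes whose residual levels were most like Col11a1 were not collagens. Over 20 frontal cortical libraries, among 10554 other genes averaging at least 10 counts, Vps4b (r = 0.75), Sms (0.72), Gsk3a (0.72), Cnot8 (0.69) and Chst8 (0.66) came first, while Col1a2 ranked 6906, Dcn 8421 and Col3a1 9765. In the hippocampus Tub (0.90), Lysmd2 (0.89), Snx4 (0.88), Atrnl1 (0.84) and Ythdf1 (0.84) came first of 10359. The nearest to Col4a1 were Abhd12 (0.75), Ezh2 (0.71), Gm44152 (0.70), Mrpl47 (0.70) and Ifrd1 (0.69) in the frontal cortex and Usp42 (0.88), Krcc1 (0.82), Trit1 (0.77), Cox7a2l (0.77) and A330076H08Rik (0.77) in the hippocampus. Its head-to-head partner Col4a2 ranked 1485 and 1463 (r = 0.27 and 0.30). The nearest to Igf2 in the frontal cortex was Dcn (0.75), ahead of Unc50 (0.74), Nus1 (0.73), Smg1 (0.72) and Asb8 (0.72), and in the hippocampus Fam169a (0.77), Hnrnpl (0.72), Usp15 (0.71), Ccdc115 (0.69) and Tmed3 (0.68), with Col1a2 at rank 14 and Dcn at rank 48. These are the top of a long ranking and carry no p. Hippocampal Col11a1 was at 0 CPM in the pre-KD library of donor 5 and at 0.656 CPM in the post-KD library of donor 8. Hippocampal Col4a1 was at 0 CPM in the pre-KD library of donor 6. Such low libraries weigh heavily in r on a log2 scale, and no ranking was made without them.

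The regions were compared next, a contrast not used to choose the genes, although earlier results of these data were known. Dcn and Igf2 were lower in the frontal cortex than in the hippocampus of the same cohorts, and none of the collagens passed. Dcn averaged 67.0 ± 28.2 CPM in hippocampal and 27.0 ± 13.4 CPM in frontal cortical libraries (SD, n = 20 each), which is -1.32 ± 0.24 on the log2 scale (SE, adjusted p = 9.78e-06 in edgeR with the cohort as a block). Igf2 averaged 94.0 ± 36.9 and 38.0 ± 9.31 CPM, or -1.24 ± 0.20 on the log2 scale (adjusted p = 6.73e-08). These are 2 of 10 genes, both lower, where 2.85% of 19422 genes passed in either direction and 0.87% as lower. The median log2 fold change of all genes in this fit was 0.17, and 37.3% of genes were below 0, against 5 of these 10. Without the cohorts with Y-linked counts Dcn gave -1.28 and Igf2 -1.36, and both passed (adjusted p = 0.000632 and 2.97e-07).

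The 8 others did not pass. For Col11a1 this comparison pools colonization groups whose regional differences had opposite signs, with means of 27.8 and 37.1 CPM (hippocampus and frontal cortex) among pre-KD and 25.6 and 12.03 CPM among post-KD libraries, and its frontal cortical values are those that chose the genes. Pooled, Col11a1 averaged 26.7 ± 16.04 CPM in hippocampal and 24.6 ± 19.1 CPM in frontal cortical libraries (log2 fold change -0.25 ± 0.37), Col1a2 34.6 ± 25.6 and 30.2 ± 18.3 CPM (-0.24 ± 0.30), and Col6a1 21.9 ± 12.01 and 27.1 ± 17.6 CPM (0.20 ± 0.36). The values of Col1a1, Col3a1, Col4a1, Col4a2 and Lum were 0.60 ± 0.49, 0.23 ± 0.85, -0.11 ± 0.39, 0.20 ± 0.36 and 0.19 ± 1.41. Their adjusted p in edgeR lay between 0.744 (Col1a1) and 0.988 (Lum). Without the cohorts with Y-linked counts Col3a1 was 0.66 ± 1.02, Col4a1 0.02 ± 0.50, Col4a2 0.35 ± 0.42, Col6a1 0.30 ± 0.43 and Lum 0.35 ± 1.73, and none of them passed. With each donor left out Col11a1 ran from -0.36 to -0.11 (without donor 6), Col1a1 from 0.37 (without donor 7) to 0.78, Col1a2 from -0.34 to -0.16 (without donor 3), Col4a2 from 0.09 (without donor 7) to 0.34 (without donor 8) and Col6a1 from 0.11 (without donor 3) to 0.35 (without donor 5).

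Choroid plexus transcripts moved with the region beside Dcn and Igf2. The choroid plexus is the tissue of the ventricles that makes cerebrospinal fluid, and it lies against the hippocampus. All 12 genes of its list were lower in the frontal cortex, as 37.3% of all genes were, and 8 passed the adjusted threshold, where 0.87% of all genes passed as lower. Among the 8 was Ttr, the thyroid hormone carrier of that tissue, at 1589 ± 872 CPM in hippocampal and 140 ± 150 CPM in frontal cortical libraries (SD, n = 20 each). Their summed level ran from 517 to 4560 CPM in the hippocampus and from 7.85 to 629 CPM in the frontal cortex, so the ranges overlapped only slightly. With the log2 of that level as a covariate Dcn gave -0.42 ± 0.55 and Igf2 -0.69 ± 0.43 (SE, adjusted p = 1 for both in edgeR), so that 0 of the 10 genes passed, and Col11a1 gave -1.60 ± 0.84 (adjusted p = 1). The covariate and the region differ together, and the errors widened. Choroid plexus content and region cannot be told apart here.

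**Figure D5:**
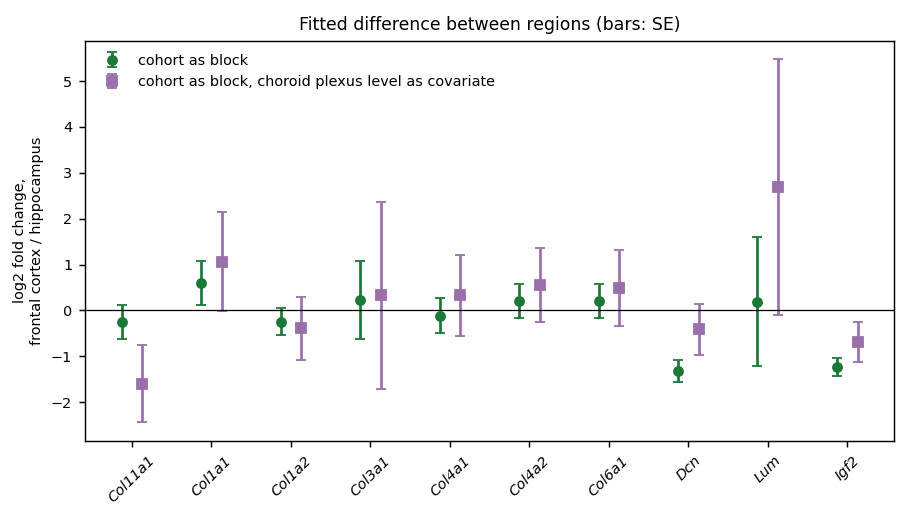
Fitted log2 fold change of each gene, frontal cortex over hippocampus (y axis), with its SE (bars), with the cohort as a block (circles) and with the choroid plexus level added (squares). Dcn (-1.32) and Igf2 (-1.24) have the largest circles below 0 relative to their bars, and both move toward 0 with the covariate.

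Within the hippocampus that level was set against each gene inside the colonization groups. Dcn gave r = 0.66 (rho = 0.41, permutation p = 0.00513 and 0.085, adjusted p = 0.185 and 0.675, n = 20) and Igf2 r = 0.48 (rho = 0.45, permutation p = 0.0343 and 0.0515, adjusted p = 0.411 and 0.618). Without the 2 libraries with the most extreme choroid plexus level these were 0.32 and 0.33, so both values depended in part on those libraries. Among pre-KD and post-KD libraries apart, r was 0.57 and 0.69 for Dcn and 0.56 and 0.45 for Igf2. Col6a1 gave r = -0.49 (rho = -0.52, permutation p = 0.0267 and 0.0228, adjusted p = 0.411 and 0.618). The frontal cortical r was 0.08 for Dcn and 0.18 for Igf2. These belong to the 36 relations named above, of which 0 passed.

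No gene of the wider lists of matrix genes passed the adjusted threshold in edgeR for post-KD against pre-KD in either region. Of 44 collagen chain genes 38 were tested in the hippocampus, 17 higher and 21 lower, with a median log2 fold change of -0.09 against -0.01 over all genes, and 5 had an unadjusted p under 0.05, where 10.1% of all genes did. Those with the smallest p, Col6a5, Col10a1 and Col14a1, were all sparse. Col14a1 averaged 5.18 ± 14.3 CPM pre-KD and 0.194 ± 0.437 CPM with post-KD microbes (adjusted p = 0.104 in edgeR). Frontal cortical values covered 39 of them, 21 higher and 18 lower, with a median of 0.03 against 0.01. Besides the 7 chains described above, 3 (Col19a1, Col22a1 and Col28a1) had an unadjusted p under 0.05, where 9.68% of all genes did. Between regions 43 were tested and 1 passed, a share below the 2.85% of all genes, so nothing is read from it for the list. It was Col9a2, a chain of the fibril-bound type IX collagen, with 6.05 ± 8.89 CPM in hippocampal and 12.4 ± 6.64 CPM in frontal cortical libraries (log2 fold change 2.52 ± 0.79, adjusted p = 0.0471). This fitted value, with the cohort as a block, is larger than the ratio of the means. Among pre-KD libraries Col9a2 averaged 8.78 ± 11.4 and 9.21 ± 6.06 CPM in the 2 regions, and among post-KD libraries 3.31 ± 4.52 and 15.5 ± 5.84 CPM (SD, n = 10 each). Col5a1 gave -2.13 ± 0.85 and Col9a3 -1.87 ± 0.83 and did not pass (adjusted p = 0.225 and 0.339).

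Enzymes and carriers that hydroxylate, fold, export, trim and crosslink collagen are also made by cells that secrete little of it. Of 31 such genes 29 were tested in the hippocampus, 24 lower and 5 higher post-KD where 50.7% of all genes were below 0, with a median of -0.31 against -0.01 over all genes, yet 4 had an unadjusted p under 0.05, where 10.1% of all genes did, and 0 an adjusted p under 0.05. Their summed level was 534 ± 134 CPM pre-KD and 463 ± 64.1 CPM with post-KD microbes (SD, n = 10 each), with overlapping ranges of 394 to 802 and 357 to 544 CPM. Mia3, which loads collagen into export vesicles, led in abundance with 169 ± 53.5 and 163 ± 43.6 CPM. Of 28 tested in the frontal cortex 15 were higher and 13 lower, with a median of 0.05 and 3 at an unadjusted p under 0.05, where 9.68% of all genes were. Between regions 0 of 30 passed, where 2.85% of all genes did, and Mia3 gave -0.32 ± 0.13 (adjusted p = 0.228).

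Basement membrane genes, laminins, nidogens, perlecan and type IV collagen among them, gave 8 higher and 8 lower of 16 in the hippocampus and 6 higher and 10 lower in the frontal cortex, with 0 at an unadjusted p under 0.05 in either region, where 10.1% and 9.68% of all genes were. Sparc, a collagen-binding protein of glia and endothelium and the most abundant of them, stood at 310 ± 85.1 and 308 ± 69.6 CPM in pre-KD and post-KD hippocampus. Of 14 small leucine-rich proteoglycans 10 could be tested for the hippocampus and 9 for the frontal cortex, with medians of -0.23 and 0.46, 1 in each at an unadjusted p under 0.05 (Chad and Aspn), close to the 10.1% and 9.68% of all genes, and 0 past the adjusted threshold in either. Between regions Dcn was the 1 of 11 that passed, where 2.85% of all genes did, while Prelp, a proteoglycan that anchors basement membranes, gave -1.06 ± 0.57 (adjusted p = 0.512). Of 18 genes of the insulin-like growth factor axis 15 were tested in each region, 0 passed the adjusted threshold, and 1 in the hippocampus (Igf2bp3) and 0 in the frontal cortex were at an unadjusted p under 0.05, no more than the 10.1% and 9.68% of all genes. Between regions Igfbp6, which binds Igf2 with preference, was higher in the frontal cortex (9.18 ± 7.37 against 23.9 ± 10.3 CPM, log2 fold change 1.82 ± 0.51, adjusted p = 0.0176), opposite to Igf2, while the receptor Igf1r stood at 191 ± 38.8 and 197 ± 42.1 CPM.

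Vessel markers were compared between the regions in the same way. Of 14 endothelial genes 12 were higher in the frontal cortex, 4 with an unadjusted p under 0.05 (10.9% of all genes) and 0 with an adjusted p under 0.05, and the median was 0.64 against 0.17 over all genes. Flt1, a receptor for vascular endothelial growth factor, stood at 69.3 ± 26.2 and 95.1 ± 30.6 CPM (adjusted p = 0.130 in edgeR). Of 13 mural genes 6 were higher and 7 lower, with a median of -0.02, and none had an unadjusted p under 0.05. For post-KD against pre-KD in the hippocampus 10 mural genes were higher and 3 lower, with a median of 0.40 against -0.01 over all genes, 50.7% of which were below 0. Of these, Abcc9 (-3.20 ± 1.17) and Myl9 (1.63 ± 0.75) had an unadjusted p under 0.05, where 10.1% of all genes did, and 0 passed the adjusted threshold. Frontal cortical values were higher for 7 and lower for 6 mural genes, with a median of 0.02 against 0.01, and 1 (Higd1b) had an unadjusted p under 0.05, where 9.68% of all genes did.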

How the data were processed

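Gene-level read counts were deposited as 1 table per region. The authors made them, per the labels and methods, from RNA pooled over 6 mice per cohort, and the submitters' processing notes name FastQC 0.11.5, STAR 2.5.2a, SAMtools 1.3 and HTSeq 0.6.0. The labels name a TruSeq kit, while a resource list names a 3' end kit (QuantSeq FWD). The strand setting and annotation release were not given in the sources used here. Library totals ran from 1140756 to 2095352 counts, and 0 pairs of libraries held identical values. Of 47643 genes 47224 matched GENCODE M21 (GRCm38), which gave symbols, coordinates and exonic lengths. Promoters came from a RefSeq table (GRCm38.p6).

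Genes with at least 10 summed counts were fitted with edgeR 4.0.16 (R 4.3.3) by its quasi-likelihood test with TMM scaling and Benjamini-Hochberg adjustment over all genes, separately for each region (post-KD over pre-KD) and between regions with the cohort as a block. The threshold was an adjusted p of 0.05. SE is the absolute log2 fold change divided by the square root of F. The tests are two-sided, and DESeq2 1.42.0 was an alternative. Correlations used log2 CPM (prior count 2) after the mean of each colonization group was removed, with 100000 permutations within groups (scipy 1.17.1, numpy 2.4.6), for genes averaging at least 5 counts. Counting intervals cover counting error only. The fits were also run on simulated counts, and no result given here rests on that run.

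The 10 genes, and the lists of collagen chains, collagen processing, fibroblast and meningeal, proteoglycan, basement membrane, insulin-like growth factor, endothelial, mural, choroid plexus, blood, neuron and Y-linked genes, were chosen with earlier results of these data known. Named beside the 10 genes were, by rule, the 5 genes most like Col11a1, Col4a1 and Igf2 in each region, and from each list up to 3 genes with the highest mean CPM and up to 3 with the smallest p. The exclusion of libraries with Y-linked counts and the alternatives for the pair of Dcn and Igf2 were chosen after seeing the data. Donors link the pre-KD and post-KD cohorts by design. Same-donor libraries correlated at -0.028 to 0.030 in the hippocampus and -0.0564 to 0.0317 in the frontal cortex after group means were removed, with 0 of 10 above 0.1 in either. The 2 regions of a cohort gave -0.023 to 0.202.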

Additional observations from a re-analysis of the deposited data

Results flagged for a closer look

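Of 40 groups of 10 libraries (10 genes, both regions, both colonizations) 5 held a library set far apart from the rest, its gap to the nearest library, on the scale of log2 CPM with a prior count of 2, exceeding the 95% critical value of Dixon's test for 10 values. For normally distributed values chance gives about 1 in 20 groups. Lum, at 0 in most libraries, does not meet this, so the number that chance would give here is not known. Hippocampal Col11a1 was at 0 CPM in the pre-KD library of donor 5, with the next at 12.5 CPM, and at 0.656 CPM in the post-KD library of donor 8, with the next at 12.96 CPM. Col4a2 stood at 0.668 CPM in the pre-KD hippocampus of donor 7, against 10.7 CPM for the next. Col1a1 stood at 2.70 CPM in the post-KD frontal cortex of donor 3, against 9.62 CPM for the next. Lum reached 9.26 CPM in the post-KD frontal cortex of donor 8, where the next library had 1.51 CPM. That scale spreads low values. On CPM itself the same comparison set apart 6 groups, of which only the Lum library was also among the 5. The others were the highest library each time, Col1a1 in the pre-KD frontal cortex of donor 9 (48.6 CPM, next 18.7), Col1a2 in the pre-KD hippocampus of donor 7 (125.5 CPM, next 54.8), Col4a1 in the post-KD frontal cortex of donor 7 (61.9, next 29.1), Col4a2 in the post-KD hippocampus of donor 8 (56.4, next 31.2) and Col6a1 in the pre-KD frontal cortex of donor 6 (63.05, next 33.3).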

How the results depend on the processing

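The frontal cortical log2 fold change of Col11a1 kept its sign under 12 alternatives and with each of 10 donors left out, from -1.996 to -1.42. The hippocampal value, never past the threshold, ran from -0.28 (without donor 2) to 0.17 (without donor 1) and was 0.024 without the libraries with Y-linked counts. Col4a2 in the hippocampus ran from -0.11 (without donor 8) to 0.28 (without donor 3) and was -0.06 without donor 7. Between regions, Col3a1 ran from -0.17 (without donor 7) to 0.53, Col4a1 from -0.26 to 0.023 (without donor 5), and Lum from -0.60 (without donor 8) to 0.89, with -0.05 without donor 9. Col4a1 was 0.33 with the choroid plexus level as a covariate, 0.01 without donor 4 and 0.024 without the cohorts with Y-linked counts. Over the alternatives between regions Lum ran from -0.13 (DESeq2) to 2.69, Col1a1 from 0.47 to 1.06, Col4a2 from 0.06 to 0.55 and Col6a1 from 0.17 to 0.49. Hippocampal Col1a1, 0.44 with all libraries, was 1.47 without those with Y-linked counts. None of these hippocampal and regional values passed the adjusted threshold, and the causes were not tested. Frontal cortical Lum was 1.999 without donor 3 and -0.04 without donor 8. With the choroid plexus level as a covariate 0 of the 10 genes passed between regions, in place of 2. Of 671 alternative values 654 kept their direction and side of the threshold, or moved by less than the set limit.

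With the donor as a replicate block, Col11a1 was -1.95 ± 0.43 in the frontal cortex and -0.08 ± 0.60 in the hippocampus (SE), and 0 of the 10 genes passed in the hippocampus. Without the cohort as a block between regions, Dcn was -1.31 and Igf2 -1.30 and both passed. In the frontal cortex the donor block took 1 of the 10 genes, Col11a1, past the adjusted threshold, where 0 passed without it, and nothing is read from this since that contrast chose the genes. No other call of these genes changed with the pairing.

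Calls over all genes depended more on the setting. Unadjusted p under 0.05 was found in the hippocampus for 1762 of 17529 genes in edgeR, 569 in DESeq2, 2931 without a filter and 348 with the donor block. In the frontal cortex these were 1731 of 17873 genes, 756, 3035 and 548. A stricter filter gave 221 of 9509 genes in the hippocampus and 407 of 10033 in the frontal cortex. Adjusted calls in the hippocampus were 1 and, without a filter, 1291, against 0 in DESeq2, with the stricter filter and with the donor block. Between regions 554 genes passed, against 1042 in DESeq2, 1935 without the block and 21 with the choroid plexus covariate. Low counts limit Lum and Col3a1 most.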
